A study of Mus musculus with 5 samples.

Results

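Id1, Id3, Smad6, Smad7 and Smad9 are genes that bone morphogenetic protein (BMP) signalling commonly switches on and whose products feed back on that signal or carry out part of its response. They were picked by gene symbol, and each of the 5 symbols was found among the 4743 genes listed for every library. Each library was made from muscle dissected out of the forelimbs of C57BL/6 embryos at E15.5. There were 3 Noggin-deficient libraries (NgKo replicates 1 to 3) and 2 libraries of wild type controls (NgWt replicates 1 and 2); the labels name no treatment. The sources used here give neither the Noggin allele nor whether a library holds 1 embryo, a litter or a pool, so p-values measure only the spread between these libraries, which may be technical.

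BMPs are secreted ligands that bring together type I and type II receptor kinases at the cell surface. The activated receptors phosphorylate SMAD1, SMAD5 and SMAD9, which join SMAD4, enter the nucleus and bind DNA at target genes. Id1 and Id3 encode inhibitors of basic helix-loop-helix (bHLH) factors, the protein class of the muscle regulators MyoD and myogenin. Smad6 and Smad7 encode inhibitory SMADs, which block the receptors and the receptor-regulated SMADs. Smad9 encodes a receptor-regulated SMAD with weak activity of its own. Noggin, the product of Nog, binds BMPs outside the cell and keeps them from their receptors.

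SMAD proteins bind the short box GTCT and, for SMAD1 and SMAD5, GC-rich boxes such as GGCGCC, so the stretches just before 3 of these genes are shown to let the values be read beside the DNA. They come from RefSeq (build GRCm38.p6, where the submitters' processing notes name mm9). Id1 and Smad7 were not matched. Capitals mark a match, on either strand, to these boxes or to the palindrome GTCTAGAC. The Id3 stretch is chr4:136143572-136143821 (plus strand), the Smad6 stretch chr9:64022056-64022309 (minus strand) and the Smad9 stretch chr3:54755332-54755581 (plus strand), each with 250 bases before the annotated start. The Smad6 stretch runs 4 bases past the start so that its last match is whole.
Id3: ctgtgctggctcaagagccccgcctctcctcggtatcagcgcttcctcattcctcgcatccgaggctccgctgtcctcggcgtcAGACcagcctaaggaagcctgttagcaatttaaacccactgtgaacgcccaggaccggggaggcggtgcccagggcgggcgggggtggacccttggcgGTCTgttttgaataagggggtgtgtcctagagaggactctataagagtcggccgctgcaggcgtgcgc
Smad6: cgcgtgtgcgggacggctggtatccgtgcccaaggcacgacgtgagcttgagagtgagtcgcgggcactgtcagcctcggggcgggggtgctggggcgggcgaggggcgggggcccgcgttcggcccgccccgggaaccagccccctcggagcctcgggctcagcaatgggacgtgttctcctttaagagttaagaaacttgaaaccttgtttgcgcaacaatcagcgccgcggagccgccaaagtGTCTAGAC
Smad9: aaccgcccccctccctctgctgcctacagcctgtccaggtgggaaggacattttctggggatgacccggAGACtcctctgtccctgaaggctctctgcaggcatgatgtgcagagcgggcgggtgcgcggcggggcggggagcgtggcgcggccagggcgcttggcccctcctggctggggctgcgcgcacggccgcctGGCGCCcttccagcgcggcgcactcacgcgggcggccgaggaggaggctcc

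In Smad6, that palindrome, which is a GTCT box on each strand, lay across the annotated start. It was held by 0.213% of the 32851 RefSeq windows of the same 300 bases (250 before the start and 50 after). Smad9 had GGCGCC at 51 to 46 bases before its start, a box found in 11.9% of the windows. The Smad9 window was 73.7% G or C, where the median over all windows was 52.7%. The share in windows as rich in G and C was not counted. Id3 had GTCT boxes at 166 to 163 and at 68 to 65 bases before its start, but 88.0% of windows hold at least 1 such box. These matches are descriptions of the letters in these windows and say nothing of binding.

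All 5 genes were higher in the Noggin-deficient libraries, by 1.35 to 1.47 times in the ratio of the group means. The ratio was 1.41 for Id1, 1.39 for Id3, 1.47 for Smad6, 1.35 for Smad7 and 1.45 for Smad9. Every Noggin-deficient library lay above both wild type libraries for each of the 5. Across the tables the groups did not overlap in 98.2% of genes, and in 41.2% the Noggin-deficient libraries were the higher ones, so the listed genes appear to have been chosen for such a difference before deposit. Full separation therefore sets these genes apart from few other listed genes.

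Values are given in the authors' expression unit, which neither the files nor the labels name. It can be compared between libraries for 1 gene, but not as a level between genes. Id1 was 64.22, 65.07 and 65.11 in NgKo replicates 1 to 3 and 45.18 and 46.99 in NgWt replicates 1 and 2. The Noggin-deficient libraries thus spanned 0.89 and stood 17.23 above the higher wild type library. Id3 was 99.489, 94.04 and 99.75 in the Noggin-deficient and 70.33 and 70.59 in the wild type libraries. NgKo replicate 2 was the lowest of its group for Id3, still 23.45 above the wild type libraries, which were nearly equal.

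The inhibitory SMAD genes showed the same order of groups. Smad6 was 5.92, 6.17 and 6.34 in the Noggin-deficient and 4.29 and 4.07 in the wild type libraries. Smad7 was 4.87, 4.61 and 4.83 in the Noggin-deficient and 3.51 and 3.54 in the wild type libraries. For both, the gap between the groups (1.63 for Smad6 and 1.07 for Smad7) was over 3 times the range within either group.

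Smad9 was the weakest case. Its values were 0.61, 0.64 and 0.64 in the Noggin-deficient and 0.50 and 0.37 in the wild type libraries. The wild type libraries differed from each other by 0.13, more than the gap of 0.11 that separated the groups. The coefficient of variation of Smad9 in the wild type libraries was 21.1%, against 0.261% to 3.72% for the other 4 genes. At such low values the second decimal, at which the tables round, is already a sizeable step.

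**Figure D1:**
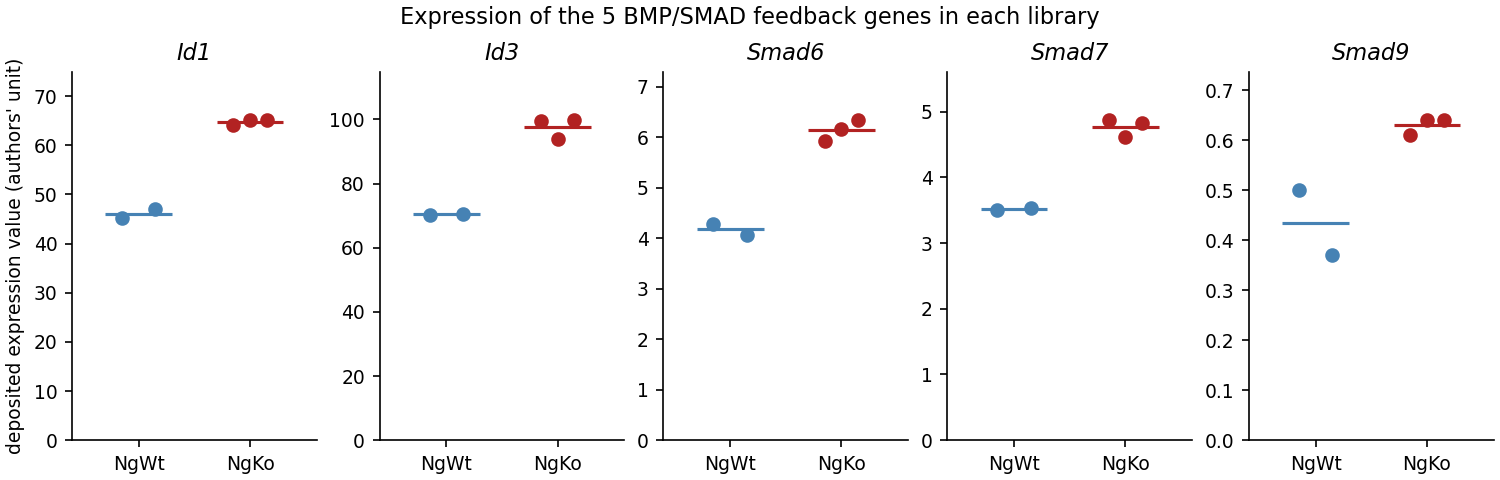
Deposited expression value (authors' unit, each axis starting at 0) of the 5 genes in the NgWt (blue, n = 2) and NgKo (red, n = 3) libraries, 1 point per library, with a line at the group mean. Every red point lies above both blue points in each panel, and the wild type points are widest apart, relative to their mean, for Smad9 (0.50 and 0.37).

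Changes were estimated with limma on log2(value + 0.25), as Noggin-deficient minus wild type. That scale understates the change of low genes. The log2 change of Id1 was 0.49 (SE 0.028), with a limma adjusted p of 3.5e-06. Id3 changed by 0.47 (SE 0.033, limma adjusted p = 9.7e-06) and Smad6 by 0.53 (SE 0.050, limma adjusted p = 4.0e-05). Smad7 had means of 3.52 ± 0.0212 (SD, n = 2) in wild type and 4.77 ± 0.140 (SD, n = 3) in Noggin-deficient libraries. Its log2 change was 0.41 (SE 0.050), with a limma adjusted p of 0.00013. Smad9 had means of 0.435 ± 0.0919 (SD, n = 2) in wild type and 0.630 ± 0.0173 (SD, n = 3) in Noggin-deficient libraries. Its log2 change was 0.37 (SE 0.12), with a limma adjusted p of 0.015. Without NgWt replicate 2, Smad9 changed by 0.23 and lost its call (limma adjusted p = 0.15).

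With adjusted p under 0.05 as the threshold, all 5 genes were called higher. Smad9 was tested only through the Noggin-deficient libraries, where it was higher, so its call is not evidence of a rise. Of the 3913 genes tested, 98.0% were called, 37.9% as higher and 60.1% as lower in the Noggin-deficient libraries. A call is therefore no distinction within these tables, and adjusted p-values over genes already selected for a difference are not independent evidence of change. An exact two-sided permutation test over the 10 ways of choosing 3 of 5 libraries gave p = 0.1 for each of the 5 genes, the smallest it can give. Among the 1484 genes called higher, Smad6 ranked 520th by log2 change, Id1 641st, Id3 706th, Smad7 946th and Smad9 1280th. The sizes of these rises were thus common among the listed genes that rose.

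The size of each change depended on how the libraries were scaled and on whether a trend with transcript length was removed. Median-of-ratios scaling, with factors taken from the listed genes, moved the median log2 change of all tested genes from -0.28 to -0.03, and the share of higher genes among the calls from 38.7% to 53.9%. Under it the changes were 0.76 for Id1, 0.74 for Id3, 0.79 for Smad6, 0.67 for Smad7 and 0.55 for Smad9. All 5 genes moved up with the whole table.

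The trend of change with transcript length took opposite signs for the Id and SMAD genes. Short transcripts were more often higher in the Noggin-deficient libraries than long ones. The longest annotated transcripts of Id1 and Id3 have 1160 and 1278 bases and fall in the shortest eighth of the tested genes, of which 67.1% were higher. Those of Smad6, Smad7 and Smad9 have 2971, 4278 and 5368 bases, and only 42.2%, 34.3% and 22.6% of the genes in their length classes were higher. The trend at its own length was 0.28 for Id1 and 0.24 for Id3, but -0.07 for Smad6, -0.22 for Smad7 and -0.30 for Smad9.

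With that trend removed, all 3 SMAD genes stood above both Id genes, where as deposited only Smad6 did. Id1 and Id3 were left with log2 changes of 0.21 (SE 0.028) and 0.23 (SE 0.032), while Smad6 stood at 0.60 (SE 0.052), Smad7 at 0.63 (SE 0.051) and Smad9 at 0.67 (SE 0.12). The 5 calls held (limma adjusted p from 6.0e-06 to 0.00082). Among the 3 SMAD genes the differences were within their errors under this setting. Because the trend was drawn through selected genes, its height depends on what was selected. The cause of the trend was not tested.

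**Figure D2:**
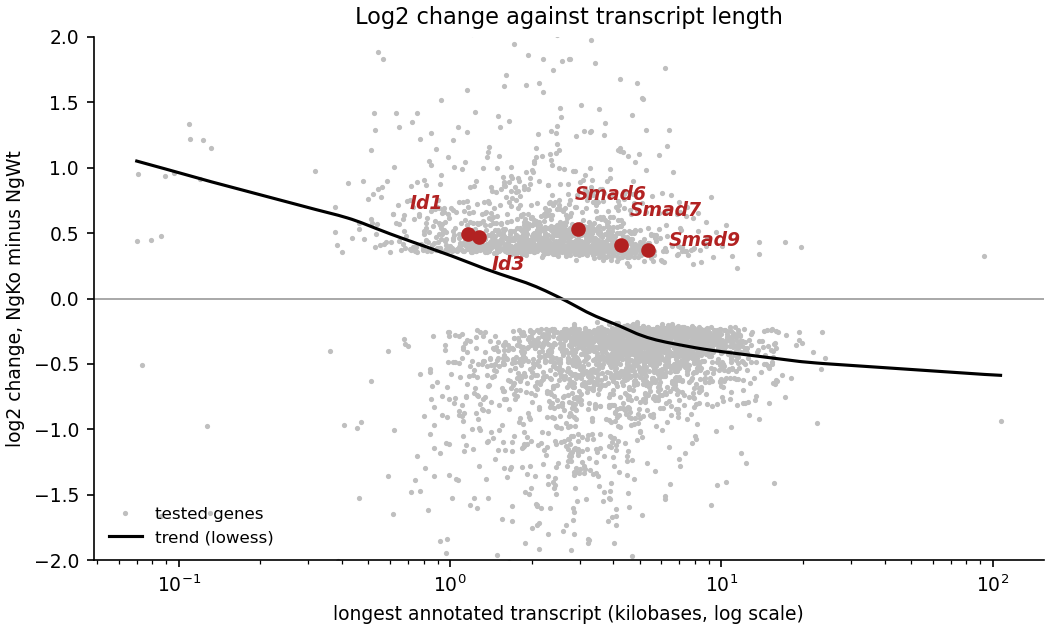
Log2 change (Noggin-deficient minus wild type) of tested genes against the length of their longest annotated transcript (kilobases, log scale), with the lowess trend as a black line and the 5 genes in red. Id1 and Id3 lie 0.21 and 0.23 above the trend and Smad6, Smad7 and Smad9 0.60 to 0.67 above it. 93 genes beyond 2 log2 units are off the axis, and almost no gene lies near 0.

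**Figure D3:**
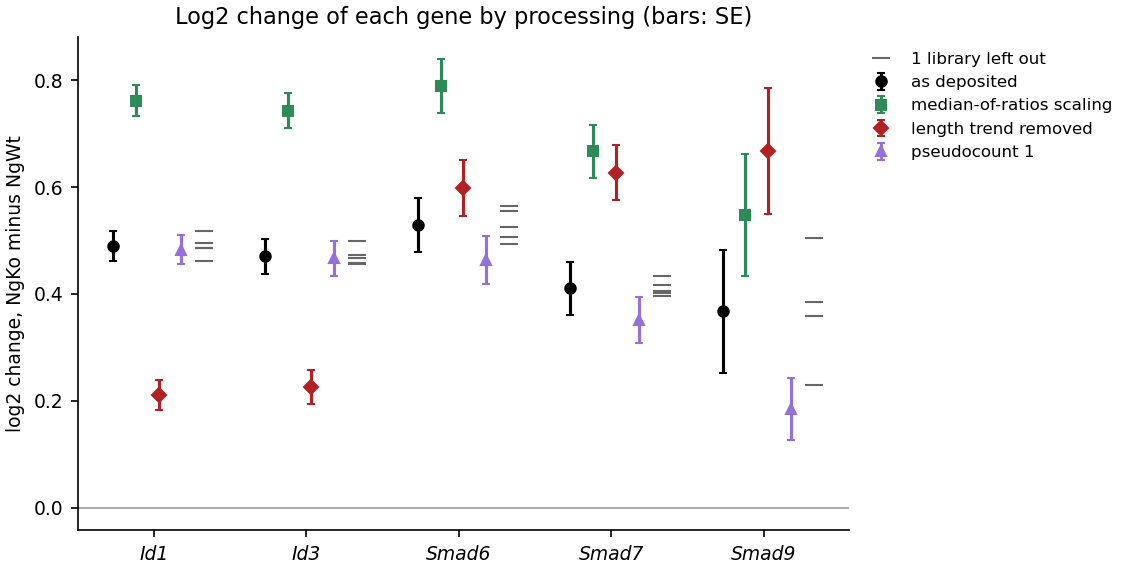
Log2 change of each of the 5 genes with the values as deposited (black), with median-of-ratios scaling (green), with the length trend removed (red) and with a pseudocount of 1 (purple), bars showing the SE. Grey ticks give the value with each of the 5 libraries left out in turn. Every point is above 0, and the left-out-library values are widest for Smad9 (0.23 to 0.51).

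How alike the 5 rises were depended on whether the trend with transcript length was removed. The log2 ratio of 2 of the genes inside a library does not depend on how that library was scaled, though it still carries any effect of length, and the 10 pairs were compared on it. With the values as deposited, the change of this ratio from wild type to Noggin-deficient lay between -0.06 and 0.16 log2 units. With the length trend removed from both genes, an alternative added after seeing the data, each Id gene rose less than each SMAD gene, by differences of -0.46 to -0.37, while Id1 and Id3 differed by -0.01. In the ratios of the values as deposited, the groups overlapped for 7 pairs. They did not for Id1 against Smad7, Id3 against Smad7 and Smad6 against Smad9.

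Also as deposited, Id1 and Id3 kept nearly the same ratio, with a difference of 0.02 (SE 0.040) between the groups. Id3 relative to Smad7 was 0.06 (SE 0.0070) higher in the Noggin-deficient libraries, and in all 3 of them above both wild type libraries. Smad6 relative to Smad9 was 0.16 (SE 0.10) higher, a value that was 0.28 with a pseudocount of 1 and 0.05 with one of 0.05. The exact two-sided permutation test gave p = 0.1 at the least, which is the smallest it can give, and 0.5 after Benjamini-Hochberg adjustment over the 10 pairs. A test with that limit cannot show whether the members differ.

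The library-by-library patterns most like each gene were sought, where the mean of the group means reached 1, by Euclidean distance between the centred log2 values of the 5 libraries. The nearest to Id1 were Cd68, a lysosomal protein of macrophages, at 0.015, and the chemokine gene Cxcl12 at 0.033. The nearest to Id3 were Mdfi, an inhibitor of MyoD family factors, at 0.039, and a transcript listed as AK138949_gene at 0.045. Smad6 was closest to Hey1, a Notch and BMP effector, at 0.044, and to the forelimb T-box gene Tbx5 at 0.054.

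Smad7 was closest to Dync1i1, a dynein chain, at 0.029 and Ak6, an adenylate kinase, at 0.031. Smad9 was closest to the homeobox gene Alx4 at 0.057 and to Accs at 0.071. The members were not each other's nearest neighbours. The shortest distance between any 2 of them, 0.069 for Id3 and Smad7, made Smad7 the 20th nearest of 3912 genes to Id3. These distances rest on 5 libraries and mostly on the difference between the groups that nearly every listed gene has.

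Of the tested ligand and receptor genes of the pathway 1 rose and 9 fell. Their medians (-0.32 for ligands and -0.34 for receptors) lay close to the -0.28 of all tested genes. Besides the 5 feedback genes, 8 lists of pathway genes of every role held 95 genes, of which 34 had values and 30 were tested. Of these, 13 rose and 17 fell, and the 43.3% that rose stood near the 37.9% of all tested genes.

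Nog itself was 0.49, 0.42 and 0.42 in the Noggin-deficient and 2 and 1.99 in the wild type libraries. It was thus lowest in the libraries labelled Noggin-deficient (log2 change -1.70, tested only through the wild type libraries), though values above 0 were still listed there and the sources used here do not say which part of Nog was altered. Of the 13 BMP ligand genes, 6 had values and 3 were tested, and these 3 fell (median -0.32). Bmp7 was 9.56, 9.97 and 9.20 in the Noggin-deficient and 11.74 and 11.51 in the wild type libraries, a log2 change of -0.27 that was -0.01 and not called under median-of-ratios scaling (limma adjusted p = 0.91). Bmp6 changed by -0.32 and lost its call under both library scalings, with the length trend removed and without NgKo replicate 1, NgKo replicate 2 or NgWt replicate 1. Bmp8a fell by 0.74 on the log2 scale, and by 0.53 under median-of-ratios scaling. The 3 other listed ligands were too low to be tested, and they did not all point the same way. Gdf5, a joint ligand, was 0.27, 0.30 and 0.39 in the Noggin-deficient and 0.48 in both wild type libraries. Gdf6, a relative of Gdf5, was 0.48, 0.54 and 0.41 against 0.29 and 0.31, higher in every Noggin-deficient library. Gdf2 was at most 0.05 in any library.

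Of the 12 receptor and co-receptor genes 7 were tested, 1 of which rose and 6 of which fell (median -0.34). Median-of-ratios scaling brought that median to -0.07, with 1 higher, 3 lower and 3 not called. Bmpr1a, a type I receptor, was 22.57, 21.99 and 22.57 in the Noggin-deficient and 26.05 and 27.59 in the wild type libraries, a log2 change of -0.26 that turned to 0.01 under median-of-ratios scaling and to 0.07 with the length trend removed. The co-receptor genes Rgmb and Hfe2 (hemojuvelin) changed by -0.43 and -0.34, and by -0.11 and -0.44 with the length trend removed. Hfe2 was not called under median-of-ratios scaling (-0.07, limma adjusted p = 0.076). Eng, the co-receptor endoglin, rose by 0.46, and by 0.59 with the length trend removed, where Id1 and Id3 stood at 0.21 and 0.23.

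Smad9 was the sole transducer SMAD with values, and Smad1, Smad2, Smad3, Smad4 and Smad5 were not analysed here. Among the intracellular inhibitors 4 of 12 were tested, and Smad6 and Smad7 rose where Tob1 and Tob2, members of an antiproliferative family that restrains SMAD activity, fell by 0.40 and 0.25 on the log2 scale. The fall of Tob1 was 0.13 under median-of-ratios scaling, and Tob2 turned to 0.02 there and was -0.05 without a call with the length trend removed. The feedback gene Bambi was not analysed here.

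Secreted antagonists other than Nog went both ways. Grem1, of gremlin, was 4.25, 4.33 and 3.84 in the Noggin-deficient and 2.78 and 2.51 in the wild type libraries, a log2 change of 0.60. Chrdl1, a chordin relative, changed by -0.40, and by -0.15 without a call under median-of-ratios scaling (limma adjusted p = 0.069). Sost, of sclerostin, was below 0.5 in both wild type libraries and was tested only through the Noggin-deficient ones. It changed by 0.60, and by 0.38 without a call when NgWt replicate 2 was left out (limma adjusted p = 0.059).

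Of the other genes that BMP signalling induces, those tested were mostly higher in the Noggin-deficient libraries. Of 21 such genes 10 were tested, 9 rose and 1 fell, where 37.9% of all tested genes were called higher. Of the 9, Msx1, Dlx2 and Hand1 were below 0.5 in both wild type libraries and were tested only through the Noggin-deficient libraries, where they were higher, so neither the count nor the median supports a rise of the list. The median log2 change was 0.85, and it was 0.57 with a pseudocount of 1 and 0.55 over the 7 genes left by the filter of 2 in at least 2 libraries. That filter too was passed by Msx1 and Msx2 only through the Noggin-deficient libraries, so the 0.55 is no support either. Msx2 was 2.43, 2.53 and 2.22 there and 0.93 and 0.77 in the wild type libraries. The genes of the list that rose did so by 0.41 to 1.86, the upper end being Msx1. The same counts held under median-of-ratios scaling, upper-quartile scaling and removal of the length trend. Of all calls in those settings, 53.9%, 48.0% and 48.5% were higher. Hand2, a bHLH factor of limb patterning, was 8.26, 8.08 and 8.18 in the Noggin-deficient and 3.56 and 4.03 in the wild type libraries, a log2 change of 1.06. Hey1 rose by 0.55 and Tbx2, a T-box repressor, by 0.41. Gata3, a zinc finger factor, was 8.56, 8.44 and 8.14 in the Noggin-deficient and 13.10 and 12.48 in the wild type libraries, a log2 change of -0.60 that ran against the rest of the list.

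The partners that Id proteins hold back were mostly without values. Of 12 bHLH genes 2 were tested. Twist1, a bHLH factor of limb mesenchyme, rose by 0.46, and Myf6, the muscle regulator MRF4, was 8.78, 8.81 and 8.62 in the Noggin-deficient and 16.44 and 17.12 in the wild type libraries, a log2 change of -0.92. Smad7 is also induced by TGF-beta, and of 11 further genes induced by it 2 were tested. Both fell, Bhlhe40, a bHLH repressor, by 0.64 and Ltbp2, a latent TGF-beta binding protein, by 0.60 on the log2 scale.

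**Figure D4:**
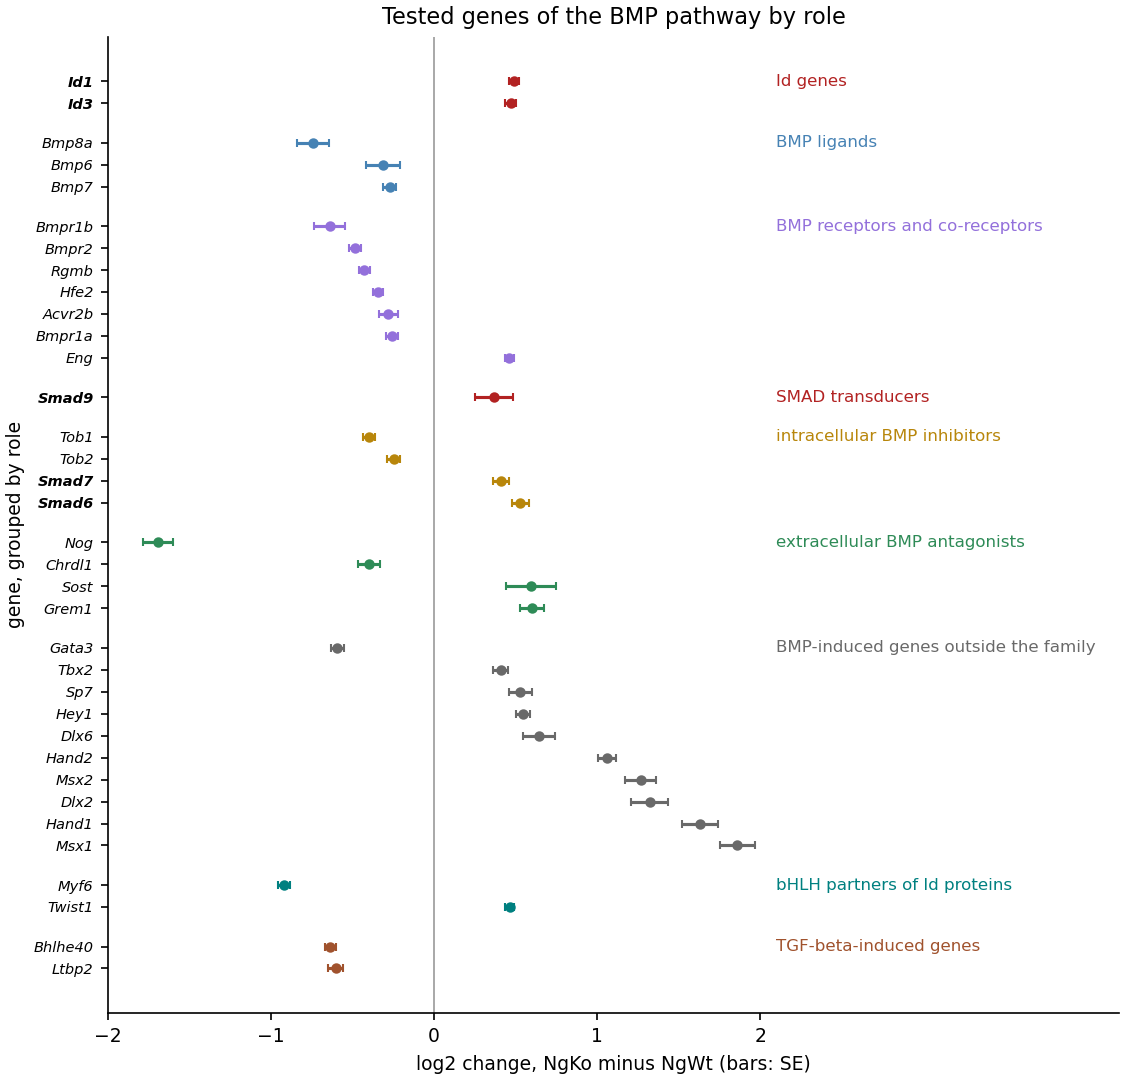
Log2 change (Noggin-deficient minus wild type, bars showing the SE) of Id1, Id3 and every tested gene of the pathway lists, grouped by role, with the 5 feedback genes in bold. The BMP ligands and all receptors other than the co-receptor Eng lie below 0. Bmpr1a turned to 0.01 and 0.07 under median-of-ratios scaling and with the length trend removed. Of the 10 other BMP-induced genes 9 lie above 0, of which 3 were tested only through the Noggin-deficient libraries. Of all tested genes 37.9% were called higher and 60.1% lower.

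Several of the 5 genes are also active in endothelium, and most of the few endothelial markers with values also rose. In bulk tissue, a change in the number of cells of a type and a change in RNA per cell cannot be told apart. Of 22 endothelial markers 5 had values, of which 4 rose and 1 fell (median log2 change 0.47), and none was listed at 0. Of all tested genes 37.9% were called higher and 60.1% lower. Their summed values ran from 188.1 to 194.4 in the Noggin-deficient and from 158.1 to 160.5 in the wild type libraries. Cldn5, a tight junction protein, rose by 0.65, Egfl7, a secreted endothelial factor, by 0.56, Eng by 0.46 and Vwf, of von Willebrand factor, by 0.47. Cd34, a sialomucin also made by fibroblast-like progenitors, changed by -0.36. Defining markers such as Pecam1, Cdh5 and Kdr were not analysed here.

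Set within each library against the sum of all 5 markers, the 5 genes were higher in the Noggin-deficient libraries by 0.10 to 0.26 log2 units, and the groups overlapped for 1 of them. The sum without Cd34, the marker that fell, gave -0.18 to -0.02, with overlap for 2. This range follows in part from leaving out the marker that fell in these same libraries, so nothing is drawn from it. Both sums also weigh each marker by a level that the unit does not let be compared between genes. Relative to Eng, Id1 differed between the groups by 0.03 (SE 0.042), Id3 by 0.01 (SE 0.036), Smad6 by 0.07 (SE 0.027), Smad7 by -0.05 (SE 0.035) and Smad9 by -0.09 (SE 0.12), and the groups overlapped for all of these genes other than Smad6. Relative to Vwf the differences were between -0.10 and 0.06, and relative to Egfl7 between -0.20 and -0.03. Relative to Cldn5 each of the 5 genes was lower in the Noggin-deficient libraries, by -0.28 to -0.12. Relative to Cd34 each was higher, by 0.73 to 0.89. These ratios also changed when the length trend was removed from both genes, an alternative added after seeing the data. Relative to Eng, Id1 and Id3 then differed by -0.38 and -0.37, and Smad6, Smad7 and Smad9 by 0.0039, 0.03 and 0.07. Relative to Vwf the differences were then -0.65 to -0.20. Against Cldn5, Id1 and Id3 then differed by -0.23 and -0.22, but Smad6, Smad7 and Smad9 by 0.16, 0.19 and 0.23. Against Egfl7, Id1 and Id3 then differed by -0.22 and -0.21, and Smad6, Smad7 and Smad9 by 0.16, 0.19 and 0.23. Against Cd34 the differences were then 0.49 to 0.94. The exact two-sided permutation p was 0.1 at the least, the smallest possible, and 0.22 after Benjamini-Hochberg adjustment over the 35 ratios compared. The part of endothelium in the rise of the feedback genes was not tested.

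**Figure D5:**
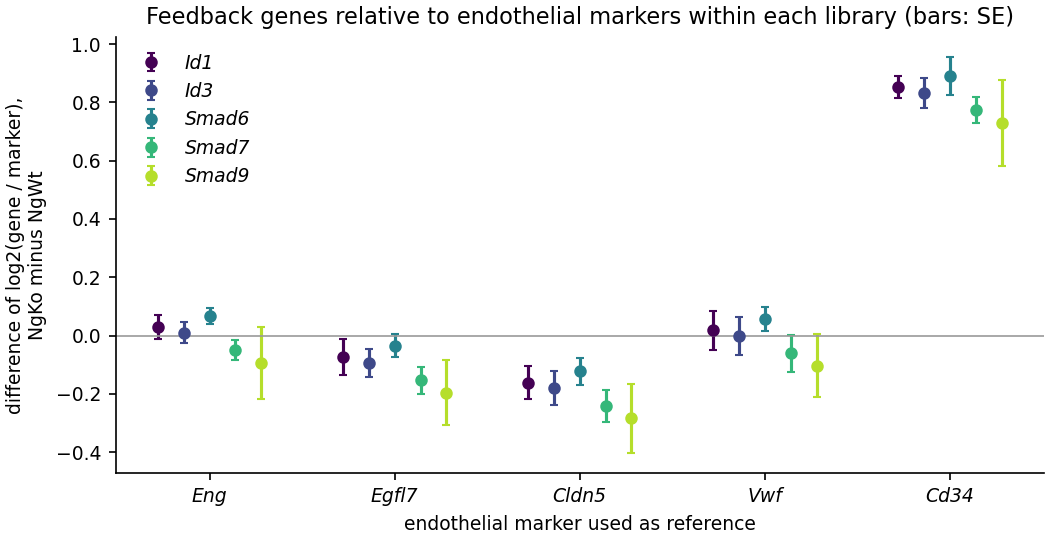
Difference between the groups (Noggin-deficient minus wild type) in the log2 ratio of each of the 5 genes to each of 5 endothelial markers, taken within libraries, with bars showing the SE. With the values as deposited, points lie near 0 for Eng and Vwf, below 0 for Cldn5 (-0.28 to -0.12) and far above it for Cd34 (0.73 to 0.89).

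Markers of other tissues in the dissected samples also differed between the groups. The counts below stand beside 37.9% of all tested genes called higher and 60.1% called lower, with a median log2 change of -0.28. Of 12 tested skeletal muscle markers all fell (median -0.59), with summed values of 3908 to 4103 in the Noggin-deficient and 5755 to 5863 in the wild type libraries. Under median-of-ratios scaling the muscle median was -0.32 and 1 of these markers was not called. Acta1, the skeletal muscle actin gene, was above 1580 in every library. Myh3, the embryonic myosin gene, changed by -0.37, and by -0.04 without a call when the length trend was removed (limma adjusted p = 0.29). The 14 epidermis markers tested fell (median -1.18), and Krt10 and Krtdap changed by -1.58 and -0.94. Of 14 liver markers 13 had values and 12 were tested and rose, but 10 of them, Alb among these, were tested only through the Noggin-deficient libraries, where they were higher. Alb was 39.11 to 40.24 in the Noggin-deficient and 0.37 to 0.39 in the wild type libraries, and Afp 29.01 to 30.46 against 0.52 to 0.53, with Fgb, Fga, Serpina1a, Serpina1b and Ahsg listed at 0 in some wild type library. The 6 erythroid markers rose (median 0.76), Hbb-y and Hba-x by 1.42 and 0.91. Of 11 Schwann cell and neuron markers 8 rose, 3 of them tested only through the Noggin-deficient libraries, and 3 fell. Erbb3 changed by -0.54. Of 10 bone and cartilage markers 5 rose and 5 fell. Those that rose were Alpl (0.71), Mmp13 (0.59), Sp7 (0.53), Spp1 (0.39) and Pth1r (0.39), genes active in bone-forming or maturing cartilage cells. Those that fell were the collagen genes Col1a1, Col2a1, Col9a1 and Col11a1 and the cartilage proteoglycan gene Acan. Col1a1 and Col2a1 changed by -0.41 and -0.29, neither of them called with the length trend removed (limma adjusted p = 0.094 and 0.86). Cd68, the only macrophage marker with values, rose by 0.50. The part of these tissues in the change of the feedback genes was not tested.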

How the data were processed

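RNA sequencing values of 5 libraries were used as deposited: per the files, 1 non-negative decimal expression signal per gene, normalized by the authors in an unnamed unit. STAR 2.4.2a, DESeq2 (version not stated) and build mm9 appear in the submitters' processing notes, with no role. The sources used here give neither the counter nor the annotation, the normalization or how the genes were selected. Per-library sums were 92210 to 93695 (NgKo) and 100792 to 102783 (NgWt). Read depth is unknown and the values are not counts, so no counting interval is given.

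Of 4743 genes, the 3913 that reached 0.5 in 2 or more libraries were tested by limma 3.58.1 in R 4.3.3, with intensity trend, on log2(value + 0.25), no covariate, and Benjamini-Hochberg adjustment over all tested genes. Smad9 reached 0.5 in the 3 Noggin-deficient libraries and in 1 wild type library, so the wild type libraries alone would not have passed it. The fit was tested on simulated data. Transcript lengths were the longest per gene in GENCODE M21 (95.5% of tested genes matched), and the trend was a lowess curve. Alternatives were other pseudocounts, filters, scalings, no intensity trend, a replicate block, each library left out and, added after seeing the data, length-trend removal for ratios between genes.

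The members, gene lists and tests were chosen with earlier results of these data known. Genes named were the members, Nog, the pathway genes tested (the 4 with the highest mean where more than 4 were), all endothelial markers, 2 markers of each other list and 2 nearest patterns per member. Gdf5, Gdf2 and Gdf6, the liver markers at 0, Msx1, Msx2, Dlx2, Hand1 and the other bone and cartilage markers were named after their values were seen.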

Additional observations from a re-analysis of the deposited data

How the results depend on the processing

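The 5 feedback genes kept their direction in all 69 alternative fits and their call in 68, the exception being Smad9 without NgWt replicate 2 (0.23). The other named genes kept both in 614 of 636. Because the listed genes appear to have been chosen for a difference, keeping direction and call is no distinction. The calls of Smad9 counted here are not evidence of a rise, as stated above. Leaving out 1 library gave changes of 0.46 to 0.52 for Id1, 0.46 to 0.50 for Id3, 0.49 to 0.57 for Smad6, 0.40 to 0.43 for Smad7 and 0.23 to 0.51 for Smad9. With a pseudocount of 1 Smad9 changed by 0.19, and the filter of 2 in at least 2 libraries left it out. Where 1 wild type library remained, it was assumed to vary like the others. The cause of these shifts was not tested.

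Calls numbered 2691 to 4530 over the alternatives, against 3836. With the replicate number as a block (replicate block), 3772 genes were called and no call of the 5 genes changed (Smad9 limma adjusted p = 0.039). Deviations of same-numbered libraries from their group means correlated at -0.13 and -0.06 across genes. The deviations of the wild type libraries mirror each other, because that group is so small. These values therefore cannot show whether same-numbered libraries share a litter or batch or only a number. Bmpr1a turned to 0.012 and 0.066 under median-of-ratios scaling and length-trend removal, and Tob2 to 0.018 under the former.

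Differences between members moved most with the length trend removed from both genes. They were then -0.39, -0.42 and -0.46 for Id1 against Smad6, Smad7 and Smad9, -0.37, -0.40 and -0.44 for Id3 against the same genes, and -0.028 and -0.069 for Smad6 against Smad7 and Smad9. They also moved with the pseudocount. At 1 they were 0.13 for Id1 and Smad7, 0.30 for Id1 and Smad9, 0.12 for Id3 and Smad7, 0.28 for Id3 and Smad9 and 0.28 for Smad6 and Smad9. At 0.05 they were 0.041 for Id3 and Smad7, -0.029 for Id3 and Smad9 and 0.050 for Smad6 and Smad9. Leaving out 1 library gave -0.10 to 0.025 for Id1 and Smad6, -0.044 to 0.29 for Id1 and Smad9, -0.037 to 0.24 for Id3 and Smad9, 0.060 to 0.26 for Smad6 and Smad9 and -0.10 to 0.19 for Smad7 and Smad9, the ends being the fits without NgWt replicate 1 and 2.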

Other observations

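The value of Id3 in NgKo replicate 1, 99.489, was the only 1 of the 23715 deposited values written with more than 2 decimals.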
